A study of Mus musculus with 3 samples.

Results

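Matrix proteases of the kidney and the proteins that restrain them were examined through 10 genes, namely the tissue inhibitors of metalloproteinases *Timp1*, *Timp2* and *Timp3*, the matrix metalloproteinases *Mmp2*, *Mmp9* and *Mmp14*, the meprin subunits *Mep1a* and *Mep1b*, the secreted protease *Adamts1* and the plasminogen activator *Plat*. Every probe set whose platform annotation named exactly 1 gene symbol out of these was taken, which gave 24 of the 45101 probe sets on the array, for 10 of 18193 named genes. RNA came from the remaining kidney of male C57BL/6J mice aged 16 weeks, with 1 sample from uninephrectomy alone mice and 2 from cardio-renal syndrome mice, each on 1 single-colour Affymetrix array. All 3 samples therefore share the loss of 1 kidney, 6 weeks before the remaining one was collected. The cardio-renal syndrome mice had in addition a constriction of the abdominal aorta below the branching of the renal arteries, placed 2 weeks before the kidney was taken out. The series' design text lists a sham operation as the alternative to banding, but the labels do not say that the uninephrectomy alone mice had one. They also leave unsaid whether each array stands for a single animal, so any p-value measures only how far these samples spread.

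Extracellular matrix is turned over by zinc-dependent proteases that are secreted or anchored in the cell membrane as inactive precursors, and the TIMP proteins block them by occupying the catalytic zinc site. In kidney these enzymes act on the interstitial collagens and on the basement membranes of tubules and glomeruli, and the urokinase and tissue-type plasminogen activators feed the same cascade by producing plasmin. Meprins are a different branch, metalloproteases of the astacin family that sit in the brush border of proximal tubule cells and cleave both peptides and basement membrane proteins.

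The MAS5 signal is a linear intensity per probe set, and no detection calls were used. Differences are given as log2(signal + 28.8) on a cardio-renal array minus the same on the uninephrectomy array, a scale on which the changes of dim probe sets are understated. A probe set was tested when its mean log2 value reached 7.01, the median of all probe sets. Of the 24 probe sets, 18 passed this filter, and they cover 8 genes. The single *Timp1* probe set and both *Mmp9* probe sets did not pass, so these genes have values but no test. Limma's fit over all 3 arrays has 1 residual degree of freedom and takes the spread of the cardio-renal pair as the spread of the single uninephrectomy sample too. It also pulls the variance of each probe set toward a trend fitted over all tested probe sets. Its standard errors therefore do not rest on the pair of that probe set alone and can be smaller than the printed SD. An exact permutation test of 1 array against 2 could not go below p = 0.333.

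Array 1 of the cardio-renal pair stood apart from the other arrays in genes that differ between male and female kidneys. Of 12 male-biased genes tested, 11 gave less signal on array 1 than with uninephrectomy alone, with a median difference of -1.05 (48.4% of all tested genes were lower there). In array 2, 3 were lower (50.7% of all tested genes were), with a median of 0.068. The summed signal of the whole male-biased list, 12 of 13 genes with a probe set, was 148750 with uninephrectomy alone and 79580 and 157098 in cardio-renal arrays 1 and 2. Of 6 female-biased genes 5 were higher in array 1 (51.6% of all tested genes were), with a median of 1.04, and 5 in array 2 (49.3%), with a median of 0.20. The remaining one, *Slc22a7*, went the other way, with 3985 with uninephrectomy alone and 459.6 and 3124 in cardio-renal arrays 1 and 2. Heart muscle transcripts were brighter in both cardio-renal samples: the summed signal of the 12 heart markers, all with a probe set and taken without the filter, was 597.2 with uninephrectomy alone and 2612 and 2012 in cardio-renal arrays 1 and 2. Proximal tubule markers were bright on every array, with 18 of 18 tested and the lowest signal at 389.4. No marker of any list was listed at 0. Because array 1 stands apart, values below are given for each cardio-renal array by itself.

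None of the 18 tested probe sets passed the test between the groups, which does not show that their levels were alike. Limma's Benjamini-Hochberg adjusted p was 0.9998 for each, and the lowest unadjusted p, 0.102, belonged to a *Timp2* probe set. Over all 22518 probe sets tested, 0.0% passed limma's adjusted p in the higher direction and 0.0% in the lower, while 2.78% had an unadjusted p under 0.05, of which 0 were members. The groups did not overlap for 7 of the 18, with 3 higher in both cardio-renal arrays and 4 lower in both, where the background over all tested probe sets was 31.8% and 29.7%. Of the 3 higher ones, *Plat* probe set 1458553_at passed the filter through array 1 alone, where it is high, so its place there is no support for a difference. The other 11 had opposite signs in the 2 cardio-renal arrays. The median difference of the tested members was -0.015 in array 1 and -0.089 in array 2, against 0.020 and -0.0061 over all tested probe sets. The values differed between the cardio-renal arrays themselves. The tested probe sets of *Timp2*, *Adamts1* and *Mmp14* had their lowest signals in cardio-renal array 2, while those of the meprins had theirs in cardio-renal array 1. The dim probe sets of *Timp2* and *Mmp14* did not have this order. This order between arrays was not tested.

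**Figure D1:**
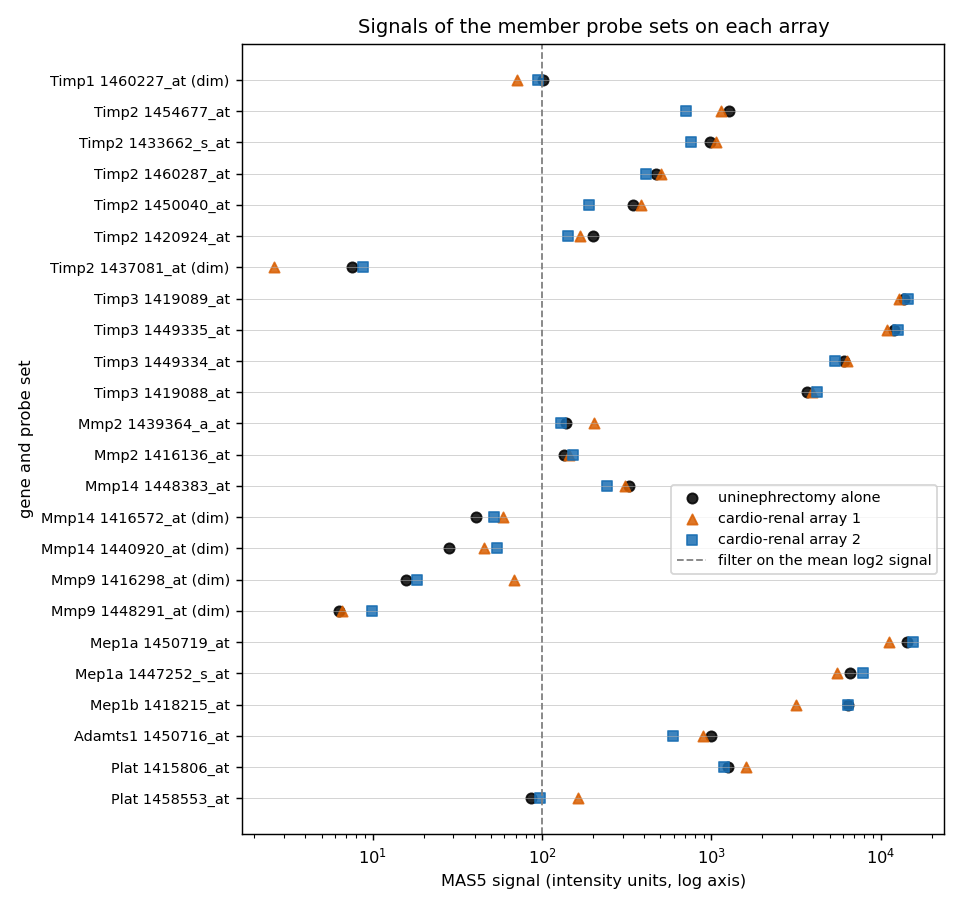
MAS5 signal (horizontal log axis, intensity units) of the 24 member probe sets on the uninephrectomy array and on the 2 cardio-renal arrays, 1 point per array, with probe sets under the filter marked as dim. The orange triangle of *Mep1b* (array 1) lies at 3159, left of the other arrays, and the blue squares of *Adamts1* and of 5 *Timp2* probe sets (array 2) lie left of the other 2 points.

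Among the inhibitors, *Timp2* had the most probe sets, 6, of which 5 were tested. TIMP-2 blocks most matrix metalloproteinases, and together with MMP-14 it forms the cell-surface complex in which the precursor of MMP-2 is activated. Its brightest probe set, 1454677_at, read 1270 with uninephrectomy alone and 1138 and 707.6 in cardio-renal arrays 1 and 2. Probe set 1450040_at gave 344.2, 386 and 188.6 in the same order, and probe set 1420924_at gave 199.9, 166.8 and 141.7. In these 3 probe sets array 2 was the lowest of the 3 arrays, and the uninephrectomy array was the highest in the first and the last. Probe set 1433662_s_at, whose design may share sequence with other transcripts, read 980.7, 1064 and 761.6. Probe set 1460287_at read 471.1, 504.2 and 411.3. On array 2 all 5 tested *Timp2* probe sets were thus lower than with uninephrectomy alone, by log2 differences between -0.82 and -0.18, whereas in array 1 just 2 of 5 were lower, against 46.4% of all tested probe sets, and the differences ran from -0.23 to 0.15. In array 2, 51.4% of all tested probe sets were lower, and 0.489% had a difference below that of 1454677_at. Probe sets of 1 gene read the same RNA and are not replicates of the comparison. The mean of both cardio-renal arrays for 1454677_at was -0.49 ± 0.47 (SD, n = 2), with a limma standard error of 0.26 and an adjusted p of 0.9998. The sixth probe set, 1437081_at, was dim, with 7.54, 2.63 and 8.72.

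The start of *Timp2* is shown because the gene, with *Adamts1* below, had the lowest differences of the members in array 2. RefSeq promoter entries in build GRCm38.p6, 250 bases before to 50 after the start site, were found for 6 of the 10 members. Capitals mark 4 promoter motifs searched on both strands, the TATA box TATAAA, the GC box GGGCGG, the CCAAT box CCAAT and the AP-1 site TGANTCA. The *Timp2* window, chr11:118355362-118355661 on the minus strand, is 68.7% G and C, and it holds 1 GC box and 1 CCAAT box.
Timp2: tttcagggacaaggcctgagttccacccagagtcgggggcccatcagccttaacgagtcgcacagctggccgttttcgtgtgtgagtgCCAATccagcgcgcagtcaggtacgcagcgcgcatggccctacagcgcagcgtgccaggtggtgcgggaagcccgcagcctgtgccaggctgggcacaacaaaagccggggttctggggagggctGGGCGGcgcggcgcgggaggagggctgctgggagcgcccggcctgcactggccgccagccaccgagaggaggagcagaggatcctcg
Over all 32851 promoter windows of this length, 35.7% hold a GC box, 37.4% a CCAAT box, 13.6% a TATA box and 7.81% an AP-1 site, so the motifs of *Timp2* are common ones.

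*Timp3*, whose product binds to the matrix itself and also inhibits ADAM sheddases, had nearly level signals in all 4 of its probe sets. The brightest, 1419089_at, read 13801 with uninephrectomy alone and 12809 and 14464 in cardio-renal arrays 1 and 2. Probe set 1449335_at read 11993, 10943 and 12712, and 1449334_at read 6090, 6320 and 5389. On the deposited scale only 1419088_at was higher in both cardio-renal arrays, at 3665, 3948 and 4213. Differences from the uninephrectomy array stayed between -0.13 and 0.11 in array 1 and between -0.18 and 0.20 in array 2. These are smaller than the SD of all tested probe sets, 0.32 in array 1 and 0.26 in array 2, and after quantile normalization the mean difference of 1419089_at and of 1449335_at changed sign. *Timp1*, the inhibitor most readily induced in injured kidney, was dim: its signals were 101.6 with uninephrectomy alone and 70.7 and 94.2 in cardio-renal arrays 1 and 2. Both cardio-renal values lay below the median signals of their arrays, 105.9 and 102.0, and the probe set lay lower in both than with uninephrectomy alone.

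Of the metalloproteinases, *Mmp14* encodes the membrane-anchored collagenase that activates MMP-2. Its brightest probe set, 1448383_at, read 327.4 with uninephrectomy alone and 307.6 and 240.8 in cardio-renal arrays 1 and 2, so that both cardio-renal arrays were lower, array 2 by -0.40 and array 1 by -0.083. The mean difference was -0.24 ± 0.23 (SD, n = 2), with an adjusted p of 0.9998 in limma. The 2 dim *Mmp14* probe sets went the other way, 1416572_at with 40.6, 59.2 and 52.3 and 1440920_at with 28.1, 45.4 and 54.0. Probe sets of this gene therefore disagreed in direction, and those that were higher lay under the filter.

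*Mmp2* encodes gelatinase A, a product mainly of fibroblasts and other mesenchymal cells. Probe set 1439364_a_at read 139.2 with uninephrectomy alone and 203.4 and 129.3 in cardio-renal arrays 1 and 2. Probe set 1416136_at read 134.7, 144.1 and 153. Array 1 was thus the highest in the first and array 2 in the second, and the mean differences were 0.19 ± 0.39 and 0.12 ± 0.05 (SD, n = 2). *Mmp9* encodes gelatinase B, which in many tissues comes from neutrophils and macrophages. Its probe set 1416298_at read 15.8, 68.4 and 18.3, and 1448291_at read 6.28, 6.56 and 9.89, all below the array medians. The value of 68.4 in array 1 stands alone and was not seen in the other *Mmp9* probe set. Of 11 neutrophil markers, 9 had a probe set and 0 passed the filter; their summed signal was 349 with uninephrectomy alone and 363.7 and 492.2 in the cardio-renal arrays.

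*Adamts1* encodes a secreted protease that cleaves the proteoglycans aggrecan and versican, and loss of the gene in mice alters kidney structure. Its single probe set, 1450716_at, read 996.9 with uninephrectomy alone and 897.9 and 590.7 in cardio-renal arrays 1 and 2. The uninephrectomy array was the highest, and array 2 lay well below both others. The log2 differences were -0.15 and -0.73, a mean of -0.44 ± 0.41 (SD, n = 2) with a limma standard error of 0.25 and an adjusted p of 0.9998. In array 2, 0.839% of tested probe sets had a lower difference, against 23.2% in array 1. Its promoter window, chr16:85803064-85803363 on the minus strand, holds 1 TATA box, whose first base lies at position -32 from the start site, and 3 GC boxes.
Adamts1: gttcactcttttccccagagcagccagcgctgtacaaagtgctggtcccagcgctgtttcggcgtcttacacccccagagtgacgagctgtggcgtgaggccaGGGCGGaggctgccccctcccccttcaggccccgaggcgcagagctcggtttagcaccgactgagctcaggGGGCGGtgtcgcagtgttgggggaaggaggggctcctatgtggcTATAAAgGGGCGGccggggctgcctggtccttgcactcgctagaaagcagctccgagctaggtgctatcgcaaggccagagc
Both windows hold a GC box, while the TATA box was found in that of *Adamts1* alone and the CCAAT box in that of *Timp2* alone; a match describes the letters and is no evidence of binding.

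**Figure D2:**
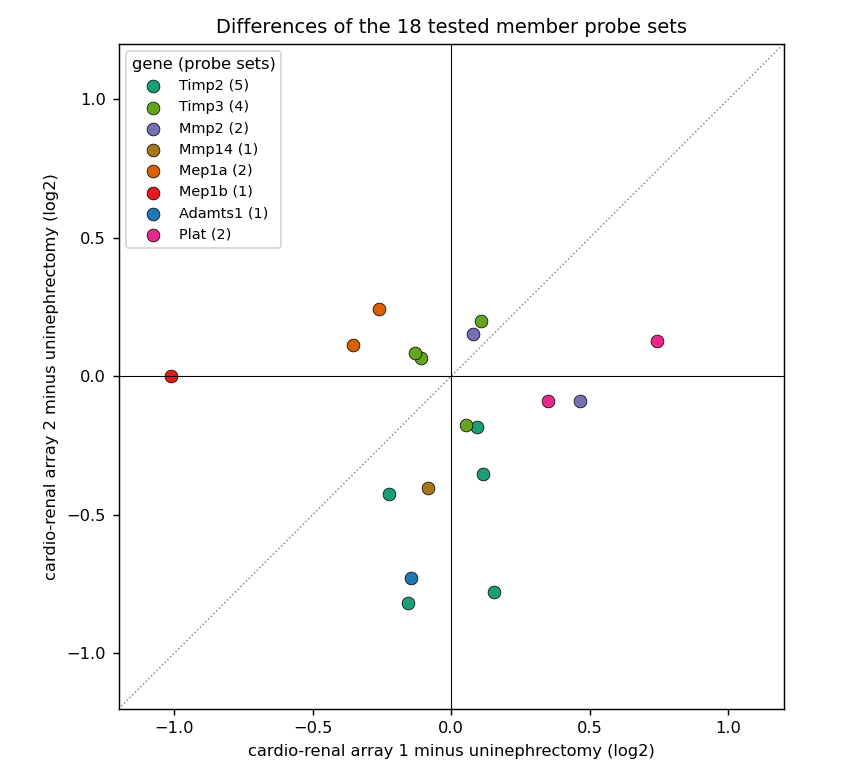
Log2 difference from the uninephrectomy array for each of the 18 tested member probe sets, cardio-renal array 1 on the horizontal axis and array 2 on the vertical axis, with 1 point per probe set and the dotted line marking equal differences. *Mep1b* lies far left at -1.01 on the zero line of array 2, and *Timp2* and *Adamts1* reach down to -0.82 and -0.73 in array 2.

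Genes of the matrix on which these enzymes act were compared with the members. Of 23 tested matrix genes, 15 lay lower on each cardio-renal array and 1, *Nid2*, lay higher on each, where 29.8% of all tested genes were lower in both and 30.6% higher in both. Their medians were -0.087 in array 1 and -0.39 in array 2, against 0.0084 and -0.0028 over all 11146 genes tested. In array 2, 22 of the 23 were lower, where 50.7% of all tested genes were. The 4 genes furthest from the uninephrectomy array in both were the collagen VI chain *Col6a2* at -0.43 and -0.86, fibronectin *Fn1* at -0.27 and -0.36, the laminin chain *Lamb1* at -0.22 and -0.39 and elastin *Eln* at -0.25 and -0.48. None passed limma's adjusted p.

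Markers of interstitial fibroblasts and pericytes lay lower in array 2 along with *Timp2* and *Adamts1*. *Col1a1*, *Col1a2*, *Col3a1*, *Dcn*, *Lum* and *Postn* are counted among the matrix genes above too, so the results of both lists partly repeat each other. Of 13 markers tested, 12 were lower in array 2, with a median of -0.41, and 8 in array 1, with a median of -0.059. Over all tested genes, 50.7% were lower in array 2 and 48.4% in array 1. The summed signal of the 15 genes with a probe set, out of 16, was 15434 with uninephrectomy alone and 15203 and 11257 in cardio-renal arrays 1 and 2. Both platelet-derived growth factor receptor genes of the list were lower in array 2, *Pdgfra* with 880.2, 906 and 498.6 and *Pdgfrb* with 1504, 1403 and 918.6. These were chosen after their values were seen. Not all markers fell like them, as in array 2 *Acta2* stood at -0.023 and *Cspg4*, the 1 higher marker, at 0.10. The part of these markers in the *Timp2* and *Adamts1* values was not tested, and in whole kidney RNA fewer cells of a type and less RNA per cell cannot be told apart. Without array 2 the difference was -0.15 for *Timp2* probe set 1454677_at and -0.15 for *Adamts1*.

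**Figure D3:**
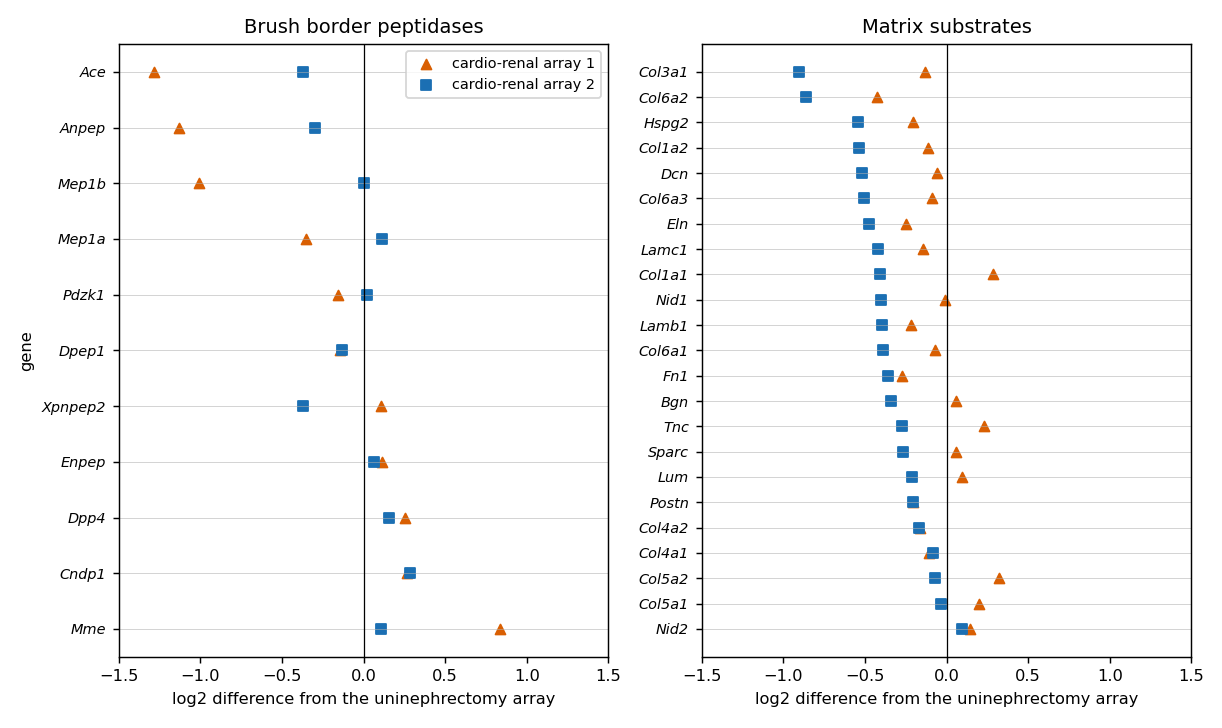
Log2 difference from the uninephrectomy array for each tested gene of the brush border peptidases (left) and of the matrix genes (right), with 1 triangle for cardio-renal array 1 and 1 square for array 2 per gene. *Ace*, *Anpep* and *Mep1b* lie below -1 in array 1, and 22 of the 23 matrix genes lie left of 0 in array 2.

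The meprins gave the largest single difference of the tested members. *Mep1b* encodes the beta subunit, which spans the membrane and holds the complex in the brush border. Its single probe set, 1418215_at, read 6391 with uninephrectomy alone and 3159 and 6399 in cardio-renal arrays 1 and 2. Array 1 was at 0.494 of the uninephrectomy signal and array 2 was within 0.0019 of it on the log2 scale, so the group did not separate from the control. The log2 differences were -1.01 and 0.0019, a mean of -0.50 ± 0.72 (SD, n = 2) with a limma standard error of 0.35 and an adjusted p of 0.9998. At least 2-fold lower signals in array 1 were found for 0.528% of all tested probe sets, and *Mep1b* was the only member among them. After quantile normalization its difference in array 1 was -0.998, just short of 2-fold. In array 2 it became -0.026, so the opposite signs of *Mep1b* hold on the deposited scale but not after that normalization. Array 2 minus array 1 was 1.01, a higher value than for 99.5% of tested probe sets.

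*Mep1a* encodes the alpha subunit, which is released from its membrane anchor during processing and stays at the cell surface through the beta subunit. Probe set 1450719_at read 14268 with uninephrectomy alone and 11153 and 15439 in cardio-renal arrays 1 and 2. Probe set 1447252_s_at, whose design may share sequence with other transcripts, read 6615, 5511 and 7839. In both probe sets array 1 was the lowest and array 2 the highest. Their differences were -0.35 and -0.26 in array 1 and 0.11 and 0.24 in array 2. The alpha subunit gene thus showed the array order of the beta subunit gene with a smaller drop in array 1, and the difference between the genes was not tested. The *Mep1a* window, chr17:43502724-43503023 on the minus strand, is shown because it is the one meprin promoter with an entry used here. It is 42.3% G and C, against 68.7% for *Timp2*, and holds no TATA box or GC box and 2 CCAAT boxes.
Mep1a: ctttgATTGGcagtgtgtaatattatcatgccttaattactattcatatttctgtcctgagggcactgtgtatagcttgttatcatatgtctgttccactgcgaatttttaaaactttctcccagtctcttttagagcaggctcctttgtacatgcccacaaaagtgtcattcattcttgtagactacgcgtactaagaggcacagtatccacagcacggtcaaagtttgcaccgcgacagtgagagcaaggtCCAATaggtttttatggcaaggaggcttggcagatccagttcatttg
No match says only that these letters are not in this window.

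Other brush border peptidases did not move as 1 group. Of the 9 tested genes of that list besides the meprins, the scaffold gene *Pdzk1* among them, 4 were lower in array 1 and 4 in array 2, where 48.4% and 50.7% of all tested genes were, and the medians were 0.11 and 0.018. With both meprins counted, 6 of 11 were lower in array 1 and 4 in array 2, and the median in array 1 was -0.14. At least 2-fold lower in array 1 were *Mep1b*, the angiotensin-converting enzyme gene *Ace* (533.3, 202.3 and 405.4) and the aminopeptidase N gene *Anpep* (293.4, 118.3 and 233.5), where 0.619% of all tested genes were. Unlike *Mep1b*, *Ace* and *Anpep* were lower in array 2 as well, by -0.37 and -0.30. Neprilysin, *Mme*, had signals of 2590, 4639 and 2787 and lay highest in array 1, where *Mep1b* was lowest; *Mme* was chosen after its values were seen. The dipeptidyl peptidase gene *Dpp4* and the carnosinase gene *Cndp1* were slightly higher in both arrays, at 0.25 and 0.16 and at 0.26 and 0.28.

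The proximal tubule and male-biased lists are given beside *Mep1b* because their summed signals have its array order. That likeness was the reason for the choice and is no support for a link. The order is not particular to them. The distal tubule and collecting duct list had it too, with sums of 86435 with uninephrectomy alone and 82802 and 86741 in cardio-renal arrays 1 and 2. So did the plasminogen list, with 48228, 44545 and 49349, while the matrix genes did not. Of 18 proximal tubule markers, 13 were lower in array 1 and 5 in array 2, where 48.4% and 50.7% of all tested genes were. Their medians were -0.18 and 0.072 and their summed signals 270335, 248494 and 288240. Not every gene of that list followed the sums, as 4 were higher in both arrays and 4 lower in both, beside 30.6% and 29.8% of all tested genes. Among the male-biased genes, 6 of the 12 tested were at least 2-fold lower in array 1 and 0 in array 2, where 0.619% and 0.197% of all tested genes were. *Kap* is counted in the proximal tubule list and in the male-biased list, and both sums are carried mostly by bright genes. The part of either list in the *Mep1b* value was not tested.

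*Plat* encodes tissue-type plasminogen activator, made chiefly by endothelial and glomerular cells. Probe set 1415806_at read 1259 with uninephrectomy alone and 1612 and 1181 in cardio-renal arrays 1 and 2. The second probe set, 1458553_at, read 86.0, 163.3 and 96.7; it exceeded the array's median in array 1 alone and so passed the filter through the array in which it is high. Array 1 was the highest in both, while array 2 lay within 0.13 of the uninephrectomy array on the log2 scale. The mean differences were 0.13 ± 0.31 and 0.43 ± 0.43 (SD, n = 2), and limma's adjusted p was 0.9998 for both. Of 12 endothelial markers, 9 were higher in array 1 and 4 in array 2, where 51.6% and 49.3% of all tested genes were. Their medians were 0.098 and -0.071 and their summed signals 12274, 12501 and 11213. Podocyte markers, 6 of 8 with a probe set and all tested, were higher in array 1 for 5 of the 6 and in array 2 for 1, beside the same shares. Their summed signals were 3351, 3462 and 3044. The part of these cells in the *Plat* value was not tested.

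The rest of the protease and inhibitor families was described by lists, each gene by its brightest probe set and the members counted where they belong, and 0 of the 31 tested genes that are not members passed limma's adjusted p (0 of 11146 genes did, and 2.50% had an unadjusted p under 0.05). Of the 31, 3 lay higher on each cardio-renal array and 7 lower on each, where 30.6% and 29.8% of all tested genes did, and the medians were 0.061 for array 1 and -0.11 for array 2. Most matrix metalloproteinase genes were dim: 6 of the 18 with a probe set passed the filter, 1 of them higher in both arrays and 2 lower. *Mmp24*, a membrane-anchored metalloproteinase, lay 0.16 and 0.46 higher. Of 8 tested ADAM sheddases, 1 was higher in both and 3 were lower. *Adam17*, the sheddase of tumour necrosis factor, was at -0.23 and -0.22, *Adam19* at -0.52 and -0.31, *Adam33* at -0.39 and -0.25 and *Adam12* at 0.43 and 0.25. Within the 6 tested ADAMTS genes, 5 were lower in array 2, where 50.7% of all tested genes were. The aggrecanase gene *Adamts5* had nearly the values of *Adamts1*, with signals of 647.1, 599.2 and 357.9 and differences of -0.11 and -0.81.

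The inhibitor list had 7 tested genes, among them *Pcolce*, which encodes an enhancer of procollagen cleavage and no inhibitor. Of the 7, 1, *Timp2*, was lower in both arrays and 0 were higher in both, where 29.8% and 30.6% of all tested genes were. *Reck*, the membrane-anchored inhibitor of metalloproteinases, stood at 0.075 in array 1 and -0.49 in array 2. *Pzp*, a broad protease inhibitor of the alpha-2-macroglobulin family, had signals of 1816, 365.8 and 2938, differences of -2.22 and 0.69, so that array 1 was the lowest as for *Mep1b*; *Reck* and *Pzp* were chosen after their values were seen. In the plasminogen list, 1 of 9 tested genes was higher in both arrays and 2 were lower. *S100a10*, which with annexin A2 holds plasminogen and its activator on the cell surface, lay 0.60 and 0.21 higher. The plasminogen receptor gene *Plgrkt* stood at -0.15 and -0.22, and urokinase, *Plau*, at -0.018 and -0.11. The third tested astacin gene besides the meprins, *Bmp1*, which trims procollagen, was at 0.60 in array 1 and -0.56 in array 2 and so did not follow the meprins.

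**Figure D4:**
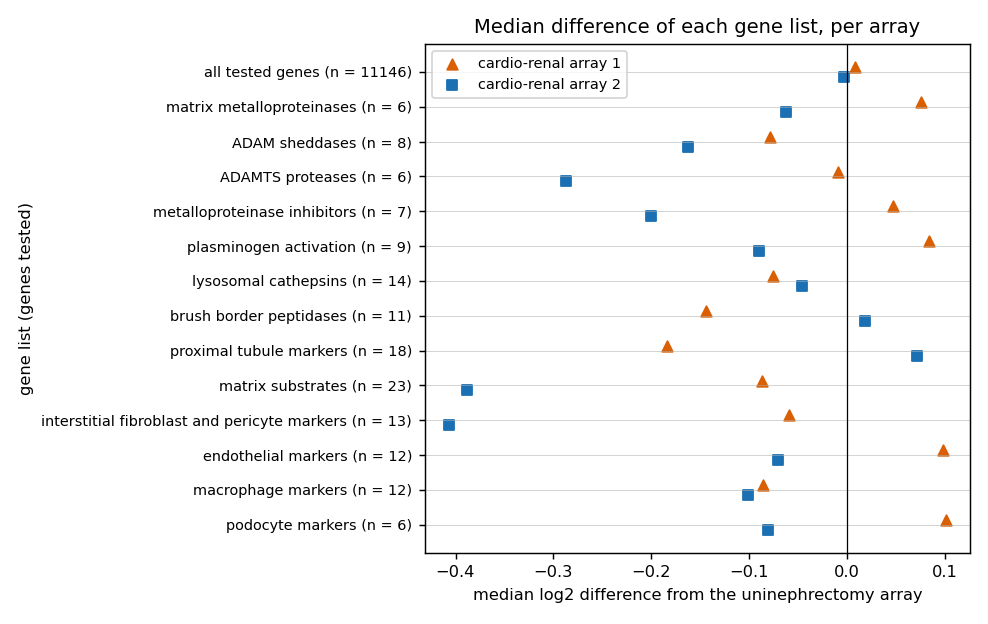
Median log2 difference from the uninephrectomy array of each gene list, with the number of tested genes in brackets, the triangle for cardio-renal array 1 and the square for array 2. The matrix genes and the fibroblast and pericyte markers lie near -0.4 in array 2, and all tested genes lie near 0 in both arrays.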

How the data were processed

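Per the labels' protocols, 250 ng of total kidney RNA per sample was converted to biotin-labelled cRNA with a kit that reads the 3' end of transcripts. The deposited values are intensities, made with MAS5 per the submitters' processing notes; the sources used here give no version. Each array's mean signal, trimmed by 2% at each end, was 499.8, so no normalization was added. MAS5 subtracts mismatch probes, which makes dim values noisy. Probe sets were named from the platform annotation with symbols updated through a RefSeq table for GRCm38.p6: 34945 had 1 symbol, 932 had several, 9160 were unnamed and 64 controls were left out. The offset of 28.8 is the 25th percentile of an array's signals, taken as the median of the 3 arrays. Tests used limma 3.58.1 in R 4.3.3 (lmFit, eBayes with trend), two-sided, Benjamini-Hochberg over 22518 probe sets, or over 11146 genes by brightest probe set for lists. The fit was tested on simulated data. Precision is limited by having 3 arrays. The members and the 19 lists were chosen with earlier results of these data known. All member probe sets are reported; up to 4 genes per list were to be named by the smaller of their 2 differences of one sign, and other names were chosen after their values were seen. Alternatives changed the normalization, offset, filter, probe set choice, variance model and replicates.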

Additional observations from a re-analysis of the deposited data

How the results depend on the processing

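Of 142 values of the tested member probe sets under 9 alternatives that keep all arrays, 140 kept their direction and 2 changed it. Under quantile normalization *Timp3* probe set 1419089_at went from -0.020 to 0.035 and 1449335_at from -0.024 to 0.013. Only quantile normalization and the changed offsets alter the values themselves. The other alternatives refit the same values, so their direction could not change and the count of 140 is no measure of robustness. Limma's adjusted p of the members lay between 0.9997 and 1 throughout. The count of probe sets past limma's adjusted p on the higher side was 0 and became 3 without shared-sequence probe sets, namely the heart muscle genes *Actc1* and *Myh6* and an unnamed one, 1460710_at, none a member; 0 passed on the lower side. The 32 probe sets that lay 2-fold or more above the uninephrectomy array on each cardio-renal array became 20 with a doubled offset, 190 without a filter, 4 in the upper quartile and 15 with 1 probe set per gene, and the 12 that lay 2-fold or more below it became 60 without a filter, 6 in the upper quartile, 6 with 1 probe set per gene and 5 without shared-sequence probe sets. Counts higher in both (7161) and lower in both (6684) were 15644 and 13168 without a filter, 3093 and 3533 in the upper quartile and 3415 and 3316 with 1 probe set per gene, as fewer or more probe sets were tested. With 1 cardio-renal array left out, which leaves no test, the ranges were 60 to 110, 47 to 119, 10935 to 12060 and 10458 to 11583 in the same order; here 1 array replaces the pair. No paired analysis was possible because the labels give the samples no replicate numbers shared between groups. Dim signals limit *Timp1*, *Mmp9* and most other metalloproteinase genes.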

Other observations

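Lysosomal proteases, which degrade matrix after uptake into cells, were measured next to the secreted ones. Of 14 cathepsin and related genes tested, 6 lay lower on each cardio-renal array and 2 higher on each, where 29.8% and 30.6% of all tested genes did, the medians were -0.076 (array 1) and -0.046 (array 2), and 0 passed limma's adjusted p. *Ctsb* stood at -0.20 and -0.083, *Ctss*, the cathepsin of antigen-presenting cells, at -0.10 and -0.20, *Ctsa* at -0.14 and -0.097 and *Ctsf* at 0.13 and 0.28. Macrophage markers included 8 that lay lower on each array and 3 that lay higher, out of 12 tested, beside the same shares of 29.8% and 30.6%, and the summed signal of the 13 genes was 8620 with uninephrectomy alone and 7325 and 7913 in cardio-renal arrays 1 and 2. Markers of the distal tubule and collecting duct included 4 that lay higher on each array and 4 that lay lower, out of 11, beside shares of 30.6% and 29.8%, with summed signals of 86435, 82802 and 86741.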
